A study of Mus musculus with 6 samples.

Results

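The heat shock proteins and DnaJ co-chaperones were taken as every gene whose symbol matches Hspa, Hspb, Hspd, Hspe, Hsph, Hsp90 or Dnaj at its start and whose mean over the 6 libraries was at least 10 normalised reads. This gave 67 members of the 17091 genes measured. A further 3 matching genes fell under that mean. The study compared the lateral wall of the cochlea by RNA sequencing in 3 old CBA/CaJ mice aged 2.5 years and 3 young CBA/CaJ mice aged 2 months, all of the same inbred strain. Each library is 1 mouse with its 2 cochleas pooled, and no mouse carries a transgene or a treatment according to the labels. This tissue is made of the stria vascularis, which keeps the endolymph rich in potassium, and the fibrocytes of the spiral ligament. The labels disagree on the source, since one field of every sample gives auditory nerve cells and another the lateral wall. Markers of marginal cells, intermediate cells, fibrocytes and neurons were all detected, at very different levels. Per library, 4 marginal cell markers summed to 44412 to 70367 normalised reads and 4 intermediate cell markers to 183377 to 274539. The sums were 427475 to 1137490 for 5 fibrocyte markers and 399 to 5829 for 8 neuron markers.

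Molecular chaperones bind unfolded or partly folded proteins and help them fold, move or be degraded. Hsp70 proteins do this in cycles of ATP hydrolysis that a DnaJ (Hsp40) protein starts and a nucleotide exchange factor such as an Hsp110 protein ends, while Hsp90 acts later on selected clients and small heat shock proteins hold unfolded proteins without ATP. Heat and other insults to protein folding raise the inducible members through heat shock factor 1, and stress in the endoplasmic reticulum (ER) raises the ER members through the unfolded protein response. In the cochlea, heat shock proteins have mainly been studied for their induction after noise or ototoxic drugs.

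Depth was even, at 37055355 to 39103398 recovered reads per library. The old libraries differed from each other in RNA of other cell types. Summed over 8 erythroid markers, old mice 1, 2 and 3 had 21076, 7122 and 42236 normalised reads, against 2874 to 4923 in young mice. The sum of 8 neutrophil and marrow markers was 5012, 733 and 9674 in the old mice and 310 to 479 in the young mice. Summed over 8 neuron markers, old mice 2 and 3 had 4980 and 5829 normalised reads, while old mouse 1, at 652, lay within the young range of 399 to 760. Macrophage markers had sums over 8 markers of 18273, 21445 and 29184 in old and 5460 to 6286 in young mice. Lyz2 made up most of the old sums, at 12184, 15278 and 21396. Of the 8, 5 were called higher, while Csf1r overlapped between ages (log2 fold change 0.14) and Mrc1 had -0.29. The sum of 5 fibrocyte markers was 427475 to 929323 in old mice and 1011300 to 1137490 in young mice. In bulk tissue, fewer cells of a type and less RNA per cell cannot be told apart.

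Most chaperone genes differed little between old and young lateral wall. Of the 67 members, 3 rose in old mice (limma, Benjamini-Hochberg adjusted p under 0.05), namely Dnajc6, Hspa12a and Hspa2, and 0 fell. That is 4.48% of the members, against 5.25% of all genes called (2.71% higher and 2.55% lower) and 5.67% of the 15234 genes with a mean of at least 10 (2.88% higher and 2.8% lower). At an unadjusted p under 0.05 there were 5 higher and 3 lower members, where 21.3% of all genes and 22.2% of genes with a mean of at least 10 passed. With edgeR's quasi-likelihood test on recovered reads, which called 5% of all genes, the same 3 members passed and 0 were lower. DESeq2 on recovered reads, which called 10.9% of the genes it tested, added Hspa8 as higher and Hspb6 as lower. Groups did not overlap in 11 members, 7 above and 4 below, while 26.1% of all genes (13.2% above and 12.8% below) and 26.9% of genes with a mean of at least 10 (13.6% above and 13.3% below) had no overlap. The median log2 fold change was 0.02 over the members and -0.00 over all genes, with 38 members on the positive side and 29 on the negative. Differences stayed small in size. The log2 fold change lay within 0.25 of 0 in 51 members (76.1%), compared with 55.4% of all genes and 59.9% of genes with a mean of at least 10. It was over 0.5 in size in 5 members (7.46%), compared with 24.2% and 19.6%. Their median size was 0.125 in members and 0.190 in genes with a mean of at least 10, and the spread between mice was also smaller, with a median pooled SD on the log2 scale of 0.155 and 0.197.

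**Figure D1:**
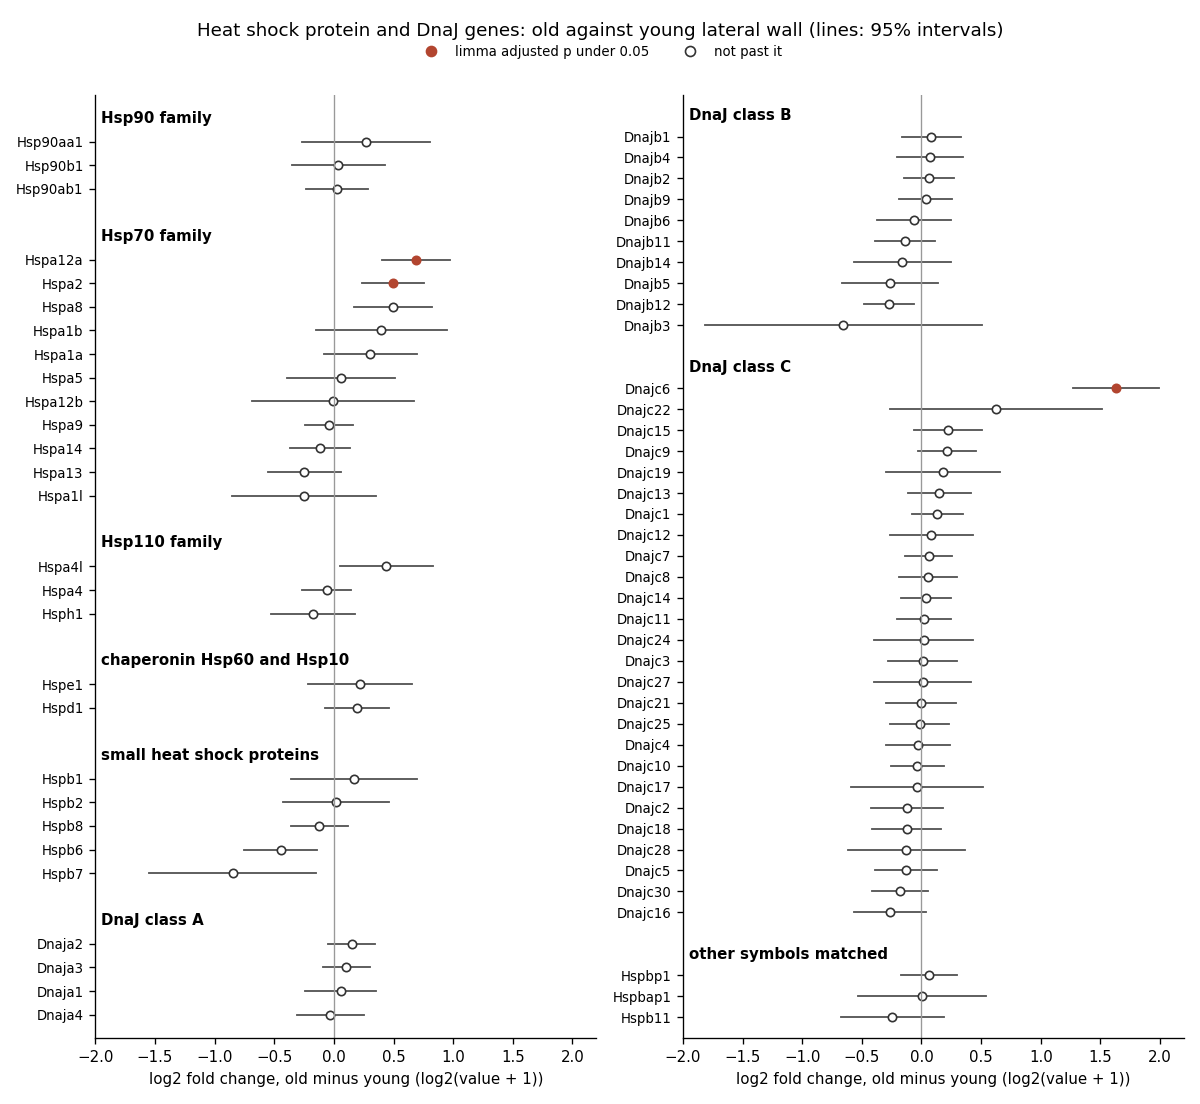
Log2 fold change (old minus young, on log2(value + 1)) of the 67 members, grouped by family, with 95% intervals from limma as lines. Filled points are the 3 members past an adjusted p of 0.05, and most of the remaining points lie within 0.25 of 0.

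Together the members took 0.803, 0.868 and 0.778% of all recovered reads in old mice 1, 2 and 3, against 0.766, 0.663 and 0.738% in young mice 1, 2 and 3. The share averaged 0.816 ± 0.0468% in old and 0.722 ± 0.0533% in young mice (SD, n = 3 each), and the groups did not overlap. The sum of normalised reads did overlap, at 295941, 321057 and 280742 in old and 303981, 254714 and 287840 in young mice. In the authors' scaling, 1 read was worth 0.946 to 0.97 normalised reads in old libraries and 1.02 to 1.05 in young libraries, so the share sets the old mice higher than the normalised sum does.

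Per kilobase of exon, the lateral wall held a few very abundant chaperones and many sparse ones. Hsp90ab1, the constitutive cytosolic Hsp90, had the highest mean level over the 6 libraries, at 17000 normalised reads per kb. Next came Hsp90b1 (GRP94, the ER Hsp90) at 10765 and Hspa8 (Hsc70, the constitutive cytosolic Hsp70) at 9606 normalised reads per kb. Hspa5 (BiP, the ER Hsp70) followed at 7844 and Hspa9 (mortalin, the mitochondrial Hsp70) at 4210. The order of neighbours was not always wider than their spread. Hspa8 had 11187 ± 856 reads per kb in old mice and Hsp90b1 10912 ± 2107, while in young mice Hspa8 had 8024 ± 1674 and Hsp90b1 10618 ± 1883 (SD, n = 3 each). Hsp90aa1, the inducible cytosolic Hsp90, reached 3330 normalised reads per kb and ranked 6. Hspb8, a small heat shock protein that works with Bag3 in chaperone-assisted autophagy, had 2997 and led the small heat shock proteins among the members. Cryab, an alpha-crystallin and also a small heat shock protein, is outside the symbol rule. It averaged 25529 normalised reads in old and 25321 in young mice, not divided by length, far above Hspb8. The 3 called members were among the sparser ones, with mean levels of 392 for Hspa2 (rank 42), 188 for Hspa12a (rank 52) and 176 for Dnajc6 (rank 54) normalised reads per kb.

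**Figure D2:**
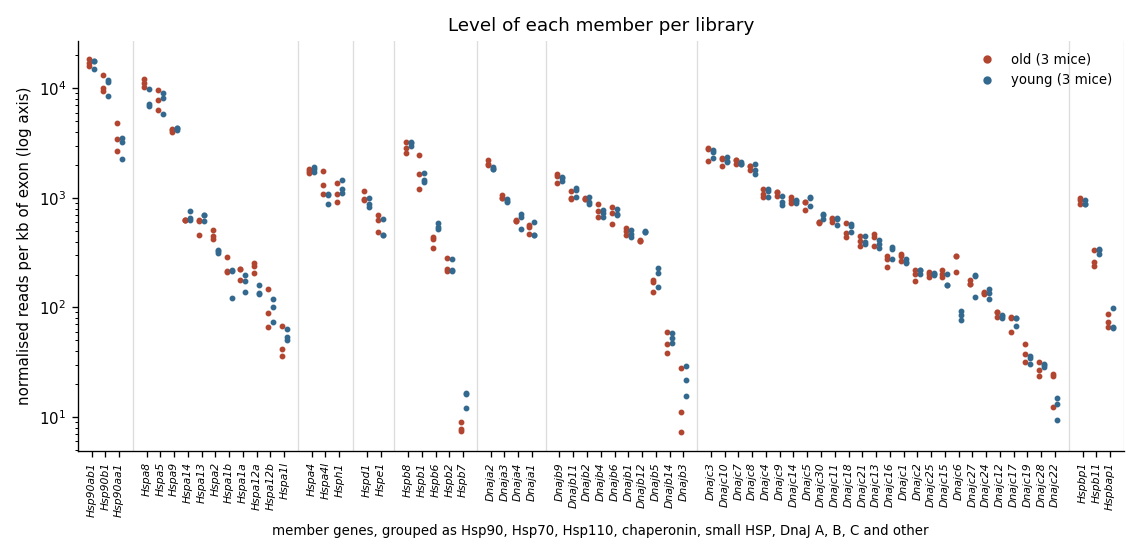
Level of every member in normalised reads per kb of exon (log axis), with 1 point per mouse, old left of young for each gene, ordered by level within each family. Hsp90ab1 is highest at a mean of 17000 and Hspb7 lowest at 11.5, and Dnajc6 is 1 of 7 genes whose old points all lie above the young points.

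The lowest members were Hspb7, Dnajc22 and Dnajb3, with means over all libraries of 31.9, 25.6 and 19.7 normalised reads, just inside the minimum of 10. They were named after their values were seen. Just outside it, Dnajb13 had 5.82, 11.3 and 4.8 normalised reads in old mice 1 to 3 and 13.6, 12.4 and 10.2 in young mice 1 to 3. Hspb9 had 7.76, 5.67 and 1.92 in old and 4.2, 10.4 and 15.3 in young mice. Dnajc5b was listed at 4.85, 0 and 10.6 in old and 2.1, 0 and 2.04 in young mice. These 3 genes were measured but are not counted below.

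Dnajc6 encodes auxilin, the J protein that brings Hsc70 to clathrin-coated vesicles so that the coat is removed, and it is known mainly from neurons. The gene lies on the plus strand of chromosome 4, from 101496648 to 101642799 (GRCm38, the assembly that mm10 names). Its normalised read count was 1709, 1225 and 1721 in old mice 1, 2 and 3 and 495, 545 and 448 in young mice 1, 2 and 3. The lowest old mouse was well above the highest young one, and the groups did not overlap. Dnajc6 was 3.1-fold higher in old mice (95% interval 2.42 to 3.97), a log2 fold change of 1.63 ± 0.16 (SE) with a limma adjusted p of 0.0016. It remained called when any library was left out, at log2 fold changes of 1.55 to 1.79 and adjusted p-values of up to 0.00966. The authors' deposited table gives a fold change of 3.13 for it.

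Neuron markers moved with age in part. Of the 8 neuron markers, 7 had positive log2 fold changes, with Stmn2 called higher and Syt1 called lower in old mice. Old mouse 1 had 1709 normalised reads of Dnajc6 with a neuron marker sum of 652, inside the young range of 399 to 760. Macrophage, erythroid and neutrophil marker sums did not overlap between ages and were higher in all 3 old mice, as Dnajc6, Hspa12a and Hspa2 were. Among the old mice, mouse 2 was lowest in these 3 members and in the erythroid and neutrophil sums. The same held for the marginal cell sum (57954, 52350 and 70367 in old mice 1, 2 and 3) and the intermediate cell sum (224755, 183377 and 274539). These strial sums overlapped between ages. In the macrophage sum mouse 1 was lowest. The part of neuron, macrophage, erythroid, neutrophil, marginal cell and intermediate cell markers in the values of these 3 members was not tested.

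RefSeq (GRCm38.p6) gives Dnajc6 a pair of promoters, each taken as 250 bases before to 50 after a start site. They are shown because Dnajc6 changed most, and both were searched on both strands for the heat shock element (GAANNTTC or TTCNNGAA, a pair of inverted GAA triplets) and for the ER stress response element (ERSE, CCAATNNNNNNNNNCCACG). Neither motif was found in these windows, so no letters are in capitals. The first spans chr4:101507726-101508025 and the second chr4:101550344-101550643, both on the plus strand.
Dnajc6 first promoter: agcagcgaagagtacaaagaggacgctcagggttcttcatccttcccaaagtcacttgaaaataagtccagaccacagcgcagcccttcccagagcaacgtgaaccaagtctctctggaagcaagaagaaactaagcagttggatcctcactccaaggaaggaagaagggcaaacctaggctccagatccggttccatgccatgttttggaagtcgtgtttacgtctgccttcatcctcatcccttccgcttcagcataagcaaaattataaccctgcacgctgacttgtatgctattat
Dnajc6 second promoter: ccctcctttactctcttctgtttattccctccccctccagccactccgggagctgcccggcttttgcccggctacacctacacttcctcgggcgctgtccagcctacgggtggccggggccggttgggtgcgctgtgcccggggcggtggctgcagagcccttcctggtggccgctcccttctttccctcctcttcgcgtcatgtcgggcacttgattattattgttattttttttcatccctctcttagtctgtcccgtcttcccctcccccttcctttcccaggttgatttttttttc

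In the Hsp70 family, 2 of 11 members rose (18.2%, against 2.71% of all genes called higher), 0 were called lower, and the median log2 fold change was 0.06. Hspa12a, a distant member of the family that is abundant in brain, had 1514, 1323 and 1616 normalised reads in old mice and 1035, 871 and 856 in young mice. All 3 old mice lay above all 3 young mice, with a log2 fold change of 0.69 ± 0.13 (SE) and a limma adjusted p of 0.0182. The call was lost without young mouse 2 (adjusted p = 0.081), without young mouse 3 (adjusted p = 0.0954) and in limma without trend (adjusted p = 0.0758). Hspa12a lies on chromosome 19, from 58795750 to 58943654 on the minus strand.

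Hspa2, an Hsp70 best known for its need in male meiosis in mice, had 1356, 1114 and 1177 normalised reads in old mice and 831, 883 and 860 in young mice. The groups did not overlap, and the young values were close together. The log2 fold change was 0.50 ± 0.12 (SE), with a limma adjusted p of 0.0425, near the threshold. It was lost when any library other than old mouse 2 was left out, with adjusted p-values of 0.0724 to 0.165, and in limma without trend (adjusted p = 0.102). Hspa2 lies on chromosome 12, from 76404176 to 76406938 on the plus strand. None of Dnajc6, Hspa12a and Hspa2 overlapped an exon of a gene on the opposite strand or shared a 50-base stretch with another gene's transcripts, and neither motif was found in the promoters of Hspa12a and Hspa2.

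Hspa8 encodes Hsc70, the partner of auxilin and the main housekeeping Hsp70. It had 26681, 28879 and 24787 normalised reads in old mice, against 23811, 16483 and 17335 in young mice. The groups did not overlap, although young mouse 1 came close to the lowest old mouse. The log2 fold change of 0.50 ± 0.15 (SE) equalled that of Hspa2 at 2 decimals, with a limma adjusted p of 0.0902, which did not pass. Hspa8 passed without young mouse 1 (adjusted p = 0.0331), with quantile normalisation (0.0493), and in DESeq2 on recovered reads (0.0329). Its reads are uncertain, since 74.8% of its 50-base stretches also occur in transcripts of other genes.

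**Figure D3:**
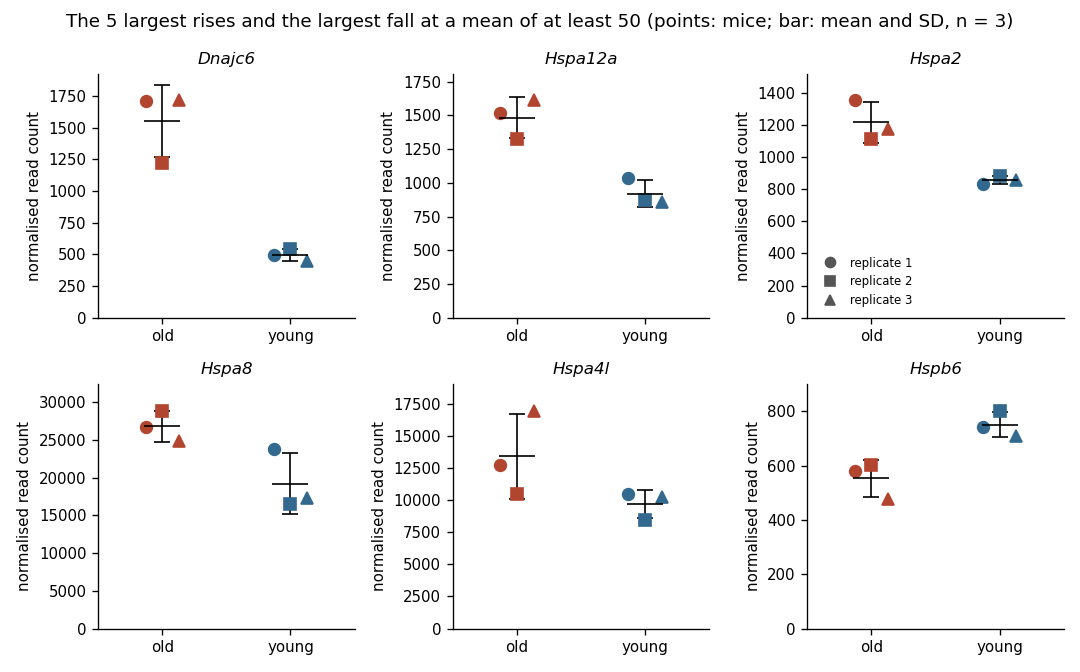
Normalised read counts of the 5 members with the largest rises and the member with the largest fall at a mean of at least 50, with 1 point per mouse, old left of young, and bars for the mean and SD (n = 3). In all 6 genes the old and young points do not overlap, and only Dnajc6, Hspa12a and Hspa2 passed the test.

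The stress-inducible Hsp70 genes did not pass. Hspa1a had 670, 529 and 665 normalised reads in old and 519, 589 and 408 in young mice, and the groups overlapped (log2 fold change 0.30 ± 0.17, SE). Hspa1b had 817, 601 and 592 in old and 611, 606 and 343 in young mice, also overlapping (0.40 ± 0.24, SE). These neighbours on chromosome 17 code for nearly the same protein and share 66.3 and 62.3% of their 50-base stretches with other genes' transcripts, so reads may be split between them. Summed, they had 1487, 1130 and 1257 normalised reads in old and 1130, 1195 and 751 in young mice, again with overlap. Their neighbour Hspa1l, a testis Hsp70, had 89.2, 167 and 103 in old and 125, 132 and 158 in young mice.

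Hspa5, the ER Hsp70, varied far more between mice of 1 age than between ages. It had 29461, 36590 and 23997 normalised reads in old and 34276, 21834 and 30521 in young mice, a log2 fold change of 0.06 ± 0.20 (SE). Hspa9 was even across the 6 mice, at 12838, 12079 and 13020 in old and 12624, 13151 and 13306 in young mice. Its 95% interval of -0.24 to 0.16 on the log2 scale is among the narrower ones. Of the other members, Hspa13, Hspa14 and Hspa12b had log2 fold changes of -0.25, -0.12 and -0.01.

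None of the 3 Hsp110 members, which exchange the nucleotide of Hsp70, passed. Hspa4l, which is known to respond to osmotic stress, had 12704, 10504 and 16967 normalised reads in old and 10451, 8478 and 10213 in young mice. The groups did not overlap, but old mouse 2 nearly met young mouse 1. The log2 fold change was 0.44 ± 0.17 (SE) with a limma adjusted p of 0.182, and without old mouse 2 it was called at 0.0452. Hsph1, the heat-inducible Hsp110, had 4586, 5795 and 3894 in old and 6119, 4707 and 5133 in young mice, which overlap. Hspa4, the housekeeping member, had a log2 fold change of -0.06.

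All 3 Hsp90 genes overlapped between ages. Hsp90ab1 had 40276, 46481 and 42814 normalised reads in old and 45072, 37464 and 44928 in young mice, with a log2 fold change of 0.03 and a 95% interval of -0.23 to 0.29. Hsp90b1 had 28337, 37617 and 26522 in old and 33986, 23956 and 32044 in young mice (0.04, interval -0.35 to 0.43). Hsp90aa1, the inducible form, had 11668, 16305 and 9152 in old and 11940, 7610 and 10886 in young mice (0.27, interval -0.26 to 0.81). In each of them old mouse 2 was the highest and young mouse 2 the lowest of the 6.

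Hspd1 (Hsp60) and Hspe1 (Hsp10) form the mitochondrial chaperonin and are transcribed away from each other from a shared promoter region on chromosome 1. Hspd1 had 2371, 2826 and 2305 normalised reads in old and 2436, 1998 and 2115 in young mice. Hspe1 had 482, 543 and 381 in old and 497, 354 and 357 in young mice. Both overlapped, and their log2 fold changes of 0.20 ± 0.12 and 0.22 ± 0.19 (SE) did not pass. The same mice were extreme in both genes, with old mouse 2 highest and old mouse 3 lowest of the old for both.

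None of the 5 small heat shock protein members passed, and 3 had negative log2 fold changes. Hspb6 (Hsp20), a phosphoprotein of smooth, cardiac and skeletal muscle, had 581, 601 and 477 normalised reads in old and 741, 803 and 710 in young mice. The groups did not overlap, with a log2 fold change of -0.45 ± 0.14 (SE) and a limma adjusted p of 0.0996. DESeq2 on recovered reads called it (adjusted p = 0.0381). Its exons overlap Lin37 on the opposite strand, and with strand not stated the reads of the pair cannot be told apart.

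Hspb7, a muscle and heart member chosen after its values were seen, had 21.3, 20.8 and 25 normalised reads in old and 33.6, 44.6 and 45.9 in young mice. It did not overlap between ages either, at a log2 fold change of -0.85 ± 0.31 (SE) and a limma adjusted p of 0.156. Skeletal muscle markers moved the same way, with a sum over 8 markers of 110, 124 and 54.8 normalised reads in old and 245, 168 and 221 in young mice. All 8 had negative log2 fold changes, 2 were called lower, and Myh1 was at 0 in all old mice. Their part in the values of Hspb6 and Hspb7 was not tested.

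Hspb1 (Hsp27), an inducible actin-binding chaperone, had 1705, 2531 and 1249 normalised reads in old and 1757, 1489 and 1451 in young mice. The old mice spanned the whole young range, and 51.6% of its 50-base stretches occur in other genes' transcripts. Hspb8 had 5826, 4624 and 5222 in old and 5370, 5899 and 5709 in young mice, a log2 fold change of -0.12 ± 0.11 (SE). The last one, Hspb2, had a log2 fold change of 0.02. Its exons overlap Cryab on the opposite strand, and 28% of its 50-base stretches occur in Cryab transcripts. In old mice Hspb2 averaged 202 normalised reads and Cryab 25529. With strand not stated, the reads of this pair cannot be told apart where they overlap.

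DnaJ proteins of class A carry the full bacterial DnaJ layout, those of class B lack its zinc-binding part, and those of class C keep only the J domain. None of the 4 class A and 10 class B members passed, and in class C only Dnajc6 of 26 did. The medians of the log2 fold change were 0.08, -0.10 and 0.02 in classes A, B and C. Dnajb1, the main inducible partner of Hsp70, had 1712, 1469 and 1610 normalised reads in old and 1495, 1621 and 1405 in young mice, which overlap (0.08 ± 0.11, SE). Dnaja1, a farnesylated cytosolic partner, had 3141, 3271 and 2715 in old and 3492, 2666 and 2659 in young mice, also with overlap (0.06 ± 0.13, SE). Dnaja2 and Dnaja3 did not overlap between ages and had log2 fold changes of 0.15 and 0.11, which did not pass.

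Among the DnaJ genes with negative values, Dnajb12 was the tightest. This ER membrane protein, which takes part in degrading misfolded membrane proteins, had 1393, 1351 and 1376 normalised reads in old and 1659, 1672 and 1639 in young mice. Both groups were narrow and did not overlap, with a log2 fold change of -0.27 ± 0.09 (SE) and a limma adjusted p of 0.136. Across the libraries left out, that value moved only between -0.28 and -0.26. Dnajc30, a mitochondrial member picked after its values were seen, had 991, 1001 and 995 in old and 1173, 1058 and 1165 in young mice (-0.18 ± 0.10, SE).

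Dnajb5 had 659, 634 and 505 normalised reads in old and 568, 761 and 849 in young mice, and Dnajc16 had 1669, 1397 and 1778 in old and 1657, 2054 and 2107 in young mice. Both overlapped, at log2 fold changes of -0.27 ± 0.18 and -0.26 ± 0.13 (SE). Of the 26 class C members, 23 lay within 0.25 of 0. Of the class C members past that size besides Dnajc6 and Dnajc16, Dnajc22 had 38.8, 36.9 and 19.2 in old and 14.7, 20.7 and 23.5 in young mice (0.62 ± 0.39, SE). Dnajb3, in class B, was the lowest-lying DnaJ value at -0.65 ± 0.52 (SE) with overlapping groups. The Hspb-named genes that are no small heat shock proteins, Hspbp1, Hspbap1 and Hspb11, had log2 fold changes of 0.07, 0.00 and -0.25.

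The 10 ER members had a median log2 fold change of -0.01, and none passed. Their spread between mice followed a shared order. In 7 of the 10 (Hspa5, Hspa13, Hsp90b1, Dnajb9, Dnajb11, Dnajc3 and Dnajc10), old mouse 2 was the highest and old mouse 3 the lowest of the old mice, and young mouse 2 was the lowest of the young mice. This order was picked after Hspa5 and Hsp90b1 were seen, so it is a description without a test. It was found in 7.99% of the 15234 genes with a mean of at least 10, in 13 of the 67 members (19.4%), and in 13 of 26 ER folding and unfolded protein response genes that are no members (50%). Dnajc3 (an ER co-chaperone first described as an inhibitor of the eIF2α kinases) had 14271, 14724 and 11131 in old and 14129, 11975 and 13543 in young mice. Dnajb9 (ERdj4), a partner of BiP, had 3867, 4038 and 3386 in old and 3789, 3486 and 3722 in young mice. The size of the swing was largest in Hspa5 among those 7, with a highest-to-lowest ratio of 1.52 among old and 1.57 among young mice, against 1.19 among old and 1.09 among young mice for Dnajb9.

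The promoters of 3 of the 9 ER members with a RefSeq entry held an ERSE, the letters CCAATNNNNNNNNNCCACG that ATF6 and NF-Y are known to bind. Over all tested genes with a promoter entry the share was 0.183% (24 of 13143 genes), and among ER folding genes that are no members it was 28.6% (6 of 21). The promoters of Hspa5, Hsp90b1 and Dnajc3 are shown with that element in capitals, because these genes hold it and share the order of mice. Dnajb9, Dnajb11 and Dnajc10 share the order too, but no ERSE was found in their promoters. Of the 6 ER folding genes with an ERSE, Calr, Canx, Derl3 and Pdia6 shared the order, and Creld2 and Syvn1 did not. A link between the element and the order was not tested. That of Hspa5 spans chr2:34771840-34772139 on the plus strand, and the ERSE begins 65 bases before the start site. That of Hsp90b1 spans chr10:86705395-86705694 on the minus strand, and its elements begin 212 and 107 bases before the start, the second in reverse complement. That of Dnajc3 spans chr14:118937682-118937981 on the plus strand, with the element 105 bases before the start. A match of letters is no shown binding site.
Hspa5: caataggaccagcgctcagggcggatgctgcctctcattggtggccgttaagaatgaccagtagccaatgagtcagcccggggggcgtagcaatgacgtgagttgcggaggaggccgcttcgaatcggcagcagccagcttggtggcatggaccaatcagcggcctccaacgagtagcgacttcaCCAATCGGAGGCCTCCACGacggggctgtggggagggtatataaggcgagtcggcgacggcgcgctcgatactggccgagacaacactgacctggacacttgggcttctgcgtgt
Hsp90b1: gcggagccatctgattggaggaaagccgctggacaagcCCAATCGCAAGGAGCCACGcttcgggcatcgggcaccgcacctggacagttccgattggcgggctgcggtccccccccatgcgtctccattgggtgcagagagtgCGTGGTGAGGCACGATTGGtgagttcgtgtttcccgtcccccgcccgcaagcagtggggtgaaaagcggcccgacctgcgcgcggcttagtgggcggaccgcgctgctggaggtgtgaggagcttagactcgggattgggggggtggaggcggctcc
Dnajc3: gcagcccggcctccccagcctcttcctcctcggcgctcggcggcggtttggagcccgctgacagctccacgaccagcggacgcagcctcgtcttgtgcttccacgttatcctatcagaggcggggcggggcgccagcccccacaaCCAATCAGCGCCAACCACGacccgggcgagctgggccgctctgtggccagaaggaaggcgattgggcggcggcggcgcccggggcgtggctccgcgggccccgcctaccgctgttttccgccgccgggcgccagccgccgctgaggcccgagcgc

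A list of 14 members known to rise with heat shock in various cells held Hspa1a, Hspa1b, Hspa8, Hspa4l, Hsph1, Hsp90aa1, Hsp90ab1, Hspd1, Hspe1, Hspb1, Hspb8, Dnaja1, Dnajb1 and Dnajb4. It is called heat-inducible here, although Hspa8 and Hsp90ab1 are mainly constitutive, and Hspa8 had its largest log2 fold change. Of the 14, 12 had positive and 2 negative log2 fold changes, with a median of 0.18, and none passed. Over all genes tested the median was -0.00. Groups did not overlap in 2 of the 14, Hspa8 and Hspa4l, where 26.1% of all genes and 26.9% of genes with a mean of at least 10 had no overlap. The shared order of mice was present in 5 of the 14 (Hsp90aa1, Hspa8, Hspd1, Hspe1 and Hsph1). Relative to each gene's own age mean, the median over the 14 was 0.02, 0.11 and -0.14 (log2) in old mice 1, 2 and 3, against 0.17, -0.13 and -0.07 in young mice 1, 2 and 3. Old mouse 2 and young mouse 1 were thus the highest of their ages by this median. Within each age, the distance from the highest to the lowest mouse was larger than the median log2 fold change of 0.18. With a library left out, that median ran from 0.09 to 0.27.

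**Figure D4:**
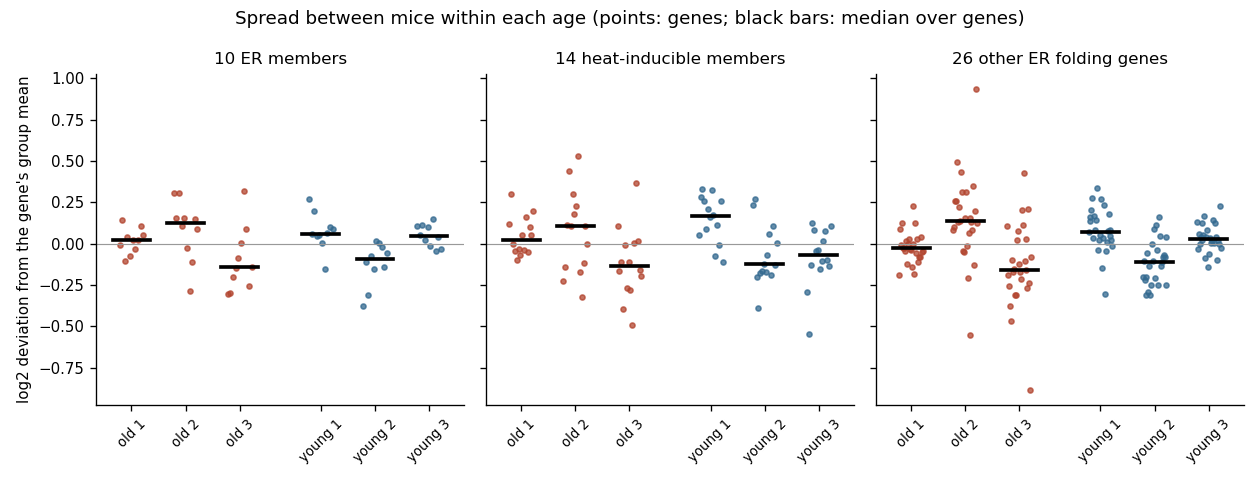
Log2 deviation of each gene from its mean within the age group, per mouse, for the 10 ER members, the 14 heat-inducible members and 26 further ER folding genes, with 1 point per gene, old mice left of young mice, and a black bar for the median. For the 26 further genes the medians are -0.03, 0.13 and -0.16 in old mice 1, 2 and 3 and 0.07, -0.11 and 0.03 in young mice 1, 2 and 3.

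Heat shock elements of at least 2 units were found in the promoters of 9 of the 11 heat-inducible members with an entry (81.8%), against 14.1% of 13143 genes, and in 14 of the 54 members with an entry (25.9%). The longer run of 3 units (GAANNTTCNNGAA or TTCNNGAANNTTC) was in Dnajb6, Hspd1, Hspe1 and Hsph1 among members and in 0.54% of all genes. The promoters of Hspe1 and Hsph1 are shown with these letters in capitals, because heat shock factor 1 is known to act through such runs and neither gene passed the test with age. That of Hspe1 spans chr1:55087898-55088197 on the plus strand, and its elements begin 89, 84 and 79 bases before the start and join into a single run, which lies also in the window of Hspd1. The Hsph1 promoter printed spans chr5:149636266-149636565 on the minus strand, with an element 54 bases before the start and a joined pair after it. RefSeq also gives Hsph1 an overlapping promoter at chr5:149636287-149636586, which is not printed. There the same elements begin 33 bases before and 36 and 41 bases after the start.
Hspe1: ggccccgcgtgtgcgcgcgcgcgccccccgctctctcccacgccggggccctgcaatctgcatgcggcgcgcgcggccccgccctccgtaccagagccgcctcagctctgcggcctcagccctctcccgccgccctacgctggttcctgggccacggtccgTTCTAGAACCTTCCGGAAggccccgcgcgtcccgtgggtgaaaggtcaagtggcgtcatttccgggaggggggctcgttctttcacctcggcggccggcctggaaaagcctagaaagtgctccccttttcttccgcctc
Hsph1: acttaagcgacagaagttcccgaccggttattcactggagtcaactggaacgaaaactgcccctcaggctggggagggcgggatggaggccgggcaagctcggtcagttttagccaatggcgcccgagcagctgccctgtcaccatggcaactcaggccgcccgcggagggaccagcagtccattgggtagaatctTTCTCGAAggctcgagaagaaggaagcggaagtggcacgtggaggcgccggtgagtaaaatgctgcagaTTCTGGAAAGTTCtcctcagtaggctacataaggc

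Genes that regulate or assist protein folding, together with 18 immediate early genes, made 7 lists with 107 genes measured. Of the 107, 0 were called higher and 2 called lower (1.87%), with a median log2 fold change of 0.01. Over all genes limma called 5.25%. At an unadjusted p under 0.05 there were 6 higher and 10 lower of the 107, where 21.3% of all genes passed. Among these, 3 higher and 0 lower were immediate early genes. On recovered reads edgeR called 2, where it called 5% of all genes, and DESeq2 called 6, where it called 10.9%. Of the 6 heat shock factors and regulators none passed. Hsf4, a heat shock factor known from the lens, had 372, 442 and 509 normalised reads in old and 303, 352 and 304 in young mice (0.45 ± 0.17, SE, limma adjusted p = 0.156), and Hsf2 had a log2 fold change of -0.19. Of the 24 cytosolic co-chaperones none passed by limma. The largest difference was that of Fkbp5, the Hsp90 co-chaperone that glucocorticoids induce, with 4132, 1741 and 3276 in old and 6376, 12133 and 9083 in young mice. Its groups did not overlap, and the log2 fold change was -1.63 ± 0.36 (SE) at a limma adjusted p of 0.05002. With a library left out, that p ran from 0.0254 to 0.173, and edgeR on recovered reads gave 0.03. Bag3, the partner of Hspb8, had 3493, 3115 and 2824 in old and 3679, 5469 and 5260 in young mice (-0.59 ± 0.16, SE, limma adjusted p = 0.0666). With a library left out, the limma adjusted p of Bag3 ran from 0.022 to 0.248. DESeq2 on recovered reads called both as lower, at adjusted p-values of 4.64e-06 for Fkbp5 and 0.00788 for Bag3.

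The 2 genes called by limma were Syvn1 and Fkbp10. Fkbp10, an ER prolyl isomerase that assists collagen folding, fell in old mice, with 965, 1138 and 858 normalised reads against 1654, 1832 and 1750 in young mice (log2 fold change -0.83 ± 0.13, SE, limma adjusted p = 0.00863). Without young mouse 3 its adjusted p was 0.05002, and in limma without trend 0.0553. It was 1 of 6 measured crystallin and collagen chaperone genes, where P3h1, a collagen prolyl hydroxylase, had -0.51 ± 0.14 (SE, limma adjusted p = 0.0764). Fibrocyte markers were also lower in old mice, with 5 of 5 negative, 1 called, and sums that did not overlap, and their part in this result was not tested. Syvn1, the ubiquitin ligase of ER-associated degradation, fell too, with 2017, 2269 and 1967 in old and 2724, 2824 and 2697 in young mice (-0.40 ± 0.10, SE, limma adjusted p = 0.0467). That call was lost when any library other than old mouse 2 was left out, at adjusted p-values of 0.0911 to 0.171. It was also lost with quantile normalisation (0.0781), in limma without trend (0.128) and in edgeR with TMM (0.0506), whose 2 calls were Fkbp10 and Fkbp5. It was the only called gene of 26 ER folding and unfolded protein response genes, of which 20 had negative and 6 positive log2 fold changes. Eif2ak3 (PERK), a sensor of ER stress, had -0.32 ± 0.10 (SE, limma adjusted p = 0.108).

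By limma, 0 of 14 TRiC chaperonin and prefoldin genes passed, and Pfdn5 and Vbp1 had the smallest p at log2 fold changes of 0.27 and 0.28. Of 13 mitochondrial folding and protease genes 0 passed, with Clpx at -0.24 and Lonp1 at -0.14. The shared order of mice was seen in 6 of the 14 TRiC and prefoldin genes and 7 of the 24 co-chaperones, but in 0 of the 13 mitochondrial genes. Immediate early genes, which handling and dissection can induce within minutes, gave 0 calls of 18 with a median log2 fold change of 0.42. By the median deviation from each age mean, they were at -0.38, 0.34 and 0.06 in old mice 1, 2 and 3 and 0.12, -0.27 and 0.13 in young mice 1, 2 and 3. The ER members were at 0.02, 0.13 and -0.14 in old and 0.06, -0.09 and 0.05 in young mice. In both lists old mouse 2 was the highest of the old and young mouse 2 the lowest of the young. The lowest old mouse was mouse 1 for the immediate early genes and mouse 3 for the ER members. The full shared order was seen in 0 of the 18 immediate early genes. A part of handling in the values of either list was not tested. Jun had 2552, 2944 and 3463 in old and 2584, 1290 and 1834 in young mice (0.70 ± 0.24, SE, limma adjusted p = 0.140). Arc was sparse, with 27.1, 27.4 and 25 normalised reads in old and 14.7, 16.6 and 6.13 in young mice. Its log2 fold change was 1.13 ± 0.44 (SE, limma adjusted p = 0.175).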

How the data were processed

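Bulk RNA of 3 old and 3 young mice was sequenced, with 1 mouse per library. RNA came from the miRNeasy Mini Kit and libraries from the TruSeq RNA kit, and degraded samples had been excluded, per the labels' protocols. Strand and annotation are not given in the sources used here. Per the submitters' processing notes, the tools included Partek, TopHat2 and DESeq2 and the build mm10, with no version or role named. Each value the authors deposited is a signal, the reads of a gene over the size factor of the library. Whole reads were recovered from the steps of the low values: 99.9% of values came out within 0.1 of a whole number. Per gene, the authors deposited a p-value, an adjusted p (lacking in 332 genes) and, as a score, a signed fold change.

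Members and lists were chosen with earlier results of these data known. limma 3.58.1 (trend, robust; R 4.3.3) was run on log2(value + 1) of all 17091 genes, with Benjamini-Hochberg adjustment, and an adjusted p under 0.05 counted as called. All fold changes keep that scale, which understates sparse genes. Limma was planned for normalised values and edgeR for raw counts. No exact permutation test was run, since 3 against 3 mice allow p = 0.1 at best. As samples are separate mice, p-values reflect differences between animals, and any batch that went with age would be part of them. The library names of young mouse 1 and old mouse 2 both end in S10, and what that number stands for is not stated. Counting intervals would cover counting error only.

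Named members were those called, the 5 largest rises and 5 largest falls at a mean of at least 50, the 5 highest means, and 17 fixed chaperones, 26 in all, plus the 2 smallest p of each related list. Alternatives were limma without trend, quantile normalisation, a replicate block, pseudocounts of 0.1 and 10, testing only genes with a mean of at least 10, each library left out, edgeR 4.0.16 and DESeq2 1.42.0 on recovered reads, the authors' deposited p-values, and thresholds of 0.01 and 0.1. The limma fit was tested on simulated data. Positions, exon lengths and overlaps come from GENCODE M21 (GRCm38) and promoters from RefSeq (GRCm38.p6), with an entry for 54 of 67 members. Of the members, 19 overlap an exon of a gene on the opposite strand, and 10 share over 40% of their 50-base stretches with other genes' transcripts, so their reads are uncertain. A Schwann cell marker list is not reported here.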

Additional observations from a re-analysis of the deposited data

How the results depend on the processing

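The 3 members called became 1 in limma without trend, 1 with the replicate block and 1 at an adjusted p under 0.01, all higher in old mice, and 5 at an adjusted p under 0.1, in DESeq2 and in the authors' deposited table, of which 1 was lower, where the main count of lower members was 0. With a library left out it ran from 1 to 4, all higher (0 lower), and was 1 without young mouse 2 or young mouse 3. All genes called numbered 898, and 307 without trend, 406 with the block, 1819 in DESeq2, 1818 in the authors' table, 210 and 1642 at 0.01 and 0.1, and 230 to 1134 with a library left out (561, 288 and 230 without young mice 1, 2 and 3). Of the related lists 2 genes were called, and 1 with quantile normalisation, 0 without trend, 1 with the block, 6 in DESeq2 and in the authors' table, 1 and 5 at 0.01 and 0.1, and 0 to 5 with a library left out. The causes were not tested. No pairing by replicate number was seen: deviations of same-numbered mice correlated at -0.244, -0.0965 and -0.0879, and of other pairs at -0.146 to 0.235. With 3 mice per age, whose deviations sum to 0, these correlations cannot show whether mice shared a batch.

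Dnajc6 was called under each alternative tried. Hspa12a missed with the block (adjusted p = 0.0509), as did Hspa2 (0.115). The median of the members was 0.02 and ran from -0.00078 to 0.0537 with a library left out. Hspa9 turned to 0.071 with quantile normalisation. Directions turned with a library left out for Dnaja1 (-0.0086 to 0.19), Dnajb9 (-0.018 to 0.11), Dnajc3 (-0.065 to 0.14), Hsp90ab1 (-0.062 to 0.076), Hsp90b1 (-0.12 to 0.14), Hspa5 (-0.13 to 0.21) and Hspb1 (-0.096 to 0.41), none of which was called. Of the values of the named members under the alternatives, 431 kept direction and side of the threshold, 9 passed newly, 13 were lost and 15 turned. Depth limits most the members with the fewest reads, Hspb7, Dnajc22 and Dnajb3.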
